A study of Mus musculus with 6 samples.

Results

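This account covers Pparg, 4 genes of lipid uptake (Cd36, Fabp4, Lpl and Vldlr) and 5 genes best known from adipocytes (Plin1, Adipoq, Retn, Cfd and Lep) in mouse liver with and without SRC-2. The members were taken by gene symbol: every probe set whose only symbol in the platform annotation was one of these 10. Of the 10 genes, 8 had such a probe set, 19 probe sets in all, out of 18193 genes with a probe set of a single symbol. Plin1 and Cfd had none, so their expression was not analysed here. There were 3 arrays of SRC-2 null and 3 of wild-type liver, and the labels do not say whether each came from a separate animal. All were from female mice on a C57 background whose ovaries were removed at 6 weeks of age and whose livers were taken 2 weeks later. The animals of both groups therefore lacked ovarian hormones, and the labels describe neither the null allele nor feeding.

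SRC-2, encoded by Ncoa2, is a coactivator of nuclear receptors. PPARgamma, encoded by Pparg, is a lipid-activated nuclear receptor that pairs with RXR on DNA and drives fat storage in adipocytes. Its level in normal liver is low and it rises in several mouse models of fatty liver. Lipid uptake uses Lpl, the lipase that frees fatty acids from circulating lipoproteins, Cd36, a fatty acid transporter at the cell surface, Vldlr, a receptor for triglyceride-rich particles, and Fabp4, a cytosolic fatty acid carrier of adipocytes, macrophages and capillary endothelium. Adipoq, Lep and Retn encode the secreted hormones adiponectin, leptin and resistin of adipocytes in mice.

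Promoter sequence was read for 2 members that were called higher in SRC-2 null liver and had an entry in RefSeq (GRCm38.p6), from 250 bases before to 50 bases after the start of the gene. Adipoq lies at chr16:23146286-23146585 on the plus strand and Cd36 at chr5:17835847-17836146 on the minus strand. Capitals mark CCAAT on either strand, the nuclear receptor motif AGGTCA on either strand, and a pair of copies of AGGTCA 1 base apart with up to 2 mismatches, the arrangement that PPARgamma and RXR bind.
Adipoq: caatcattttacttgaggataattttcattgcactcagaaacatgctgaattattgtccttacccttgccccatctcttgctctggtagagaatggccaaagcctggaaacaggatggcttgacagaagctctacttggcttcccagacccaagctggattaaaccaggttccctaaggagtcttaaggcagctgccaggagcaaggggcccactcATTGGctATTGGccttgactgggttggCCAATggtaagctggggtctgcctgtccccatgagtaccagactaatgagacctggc
Cd36: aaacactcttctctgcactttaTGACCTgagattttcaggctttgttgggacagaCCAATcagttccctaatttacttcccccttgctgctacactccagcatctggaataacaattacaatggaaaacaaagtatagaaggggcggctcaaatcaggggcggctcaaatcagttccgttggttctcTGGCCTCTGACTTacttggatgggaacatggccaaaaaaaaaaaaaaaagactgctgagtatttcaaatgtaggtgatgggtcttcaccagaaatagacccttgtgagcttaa

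The Cd36 window held 1 exact AGGTCA, 1 pair with 2 mismatches and 1 CCAAT. The Adipoq window held 3 copies of CCAAT and neither of the other motifs. Of 32851 promoter windows of this length, 16.3% held AGGTCA, 3.86% the pair and 37.4% CCAAT. Of the 10 members, 8 had an entry (11 windows), Plin1 and Cfd among them, and Fabp4 and Lpl were the 2 without one. Pparg had AGGTCA in 2 of its 3 windows and CCAAT also in 2 of the 3. Vldlr had a CCAAT in 1 window, and Lep, Retn, Plin1 and Cfd had no match to any of the 3 motifs. A match here is a run of letters and not a measured binding site.

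Values are log2 expression values made by robust multi-array average (RMA), and fold changes are SRC-2 null over wild-type. Near the low end such values hold mostly background, so a fold change from a dim level can be understated. The targeted gene was lower in the null livers, as 2 of its 4 probe sets showed. Ncoa2 probe set 1435233_at read 5.60, 5.44 and 5.86 in null liver, against 7.74, 7.92 and 8.53 in wild-type liver, a 5.41-fold lower level (limma adjusted p = 0.000615). Probe set 1435234_at of Ncoa2 was 4.48-fold lower. The other 2 probe sets of Ncoa2, 1446827_at and 1450458_at, did not pass the test, and one outside the deleted part would check nothing. Of 11 hepatocyte markers none was called in limma, and Alb averaged 14.41 ± 0.05 in null and 14.44 ± 0.02 in wild-type liver (SD, n = 3 each). Over the 22515 probe sets at or above the median level, replicate 3 of both genotypes stood apart from replicates 1 and 2. The deviations of the replicate 3 arrays from their group means correlated at 0.65 across these probe sets. The differences by replicate number are therefore given beside the results. With 3 arrays a group, precision is set by that number.

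Of the 19 probe sets, 6 were called higher in SRC-2 null liver (limma adjusted p under 0.05 over 45037 probe sets), none was called lower, and 13 were not called. Across all probe sets tested, 0.266% were called higher and 0.802% lower. The 6 belonged to Adipoq (1 probe set), Fabp4 (2), Lpl (1) and Cd36 (2). The median log2 fold change was 0.49 over the 19 and 0.01 over all probe sets. In 11 of the 19 the null values all lay above the wild-type values, as did 7.6% of all probe sets. Fold changes by gene, each from its brightest probe set, were 4.39 for Adipoq, 3.31 for Fabp4, 1.87 for Lpl, 1.64 for Cd36, 1.23 for Retn, 1.07 for Vldlr, 1.07 for Pparg and 1.06 for Lep, of which the last 4 did not pass the test. The number of member probe sets called was 4 to 6 without each array in turn and 4 in replicates 1 and 2 alone. Over the whole table, 481 probe sets were called, but 288 when null replicate 1 was left out and 268 when null replicate 2 was. When wild-type replicate 1 was left out 279 were called, and 258 when wild-type replicate 2 was.

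**Figure D1:**
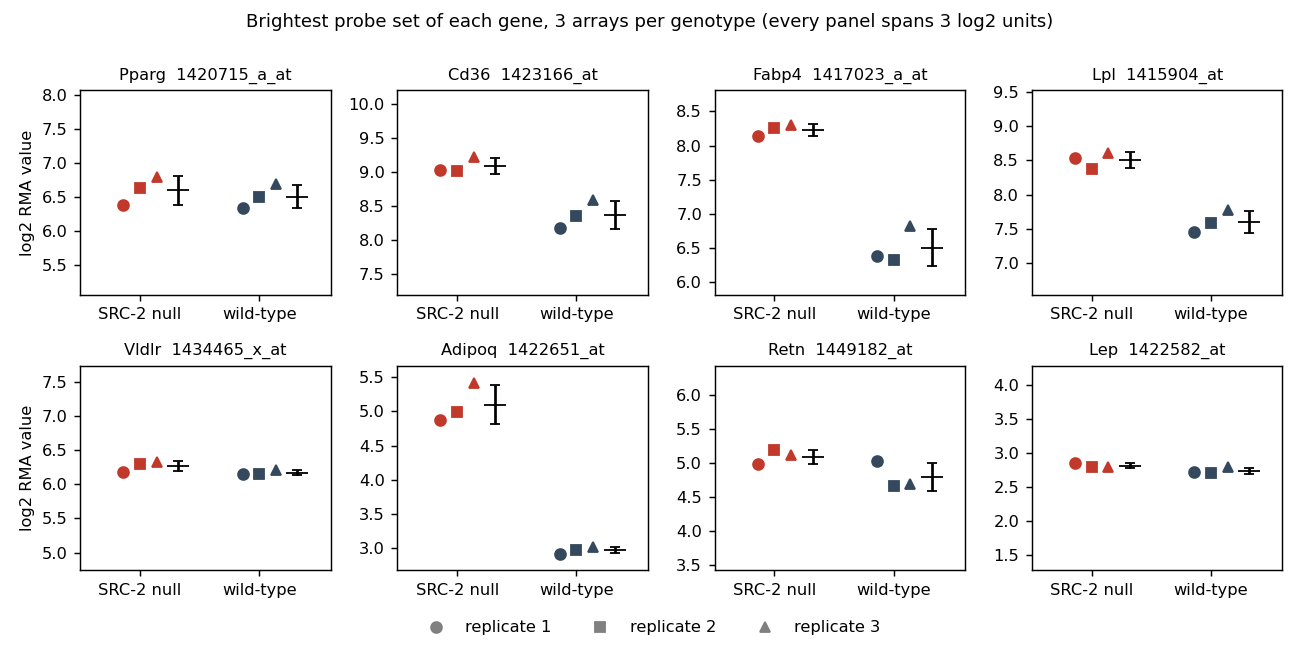
Log2 RMA values (vertical axis) of the brightest probe set of each of the 8 genes in the 3 SRC-2 null arrays (red) and the 3 wild-type arrays (dark blue), with symbols for the replicate number and a bar for the mean ± SD. The groups are far apart for Adipoq and Fabp4, separate for Lpl and Cd36, and overlap for Pparg, Vldlr and Retn.

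Pparg itself was not called. Its single probe set, 1420715_a_at, read 6.38, 6.63 and 6.79 in null liver, against 6.35, 6.50 and 6.69 in wild-type liver. The ranges overlapped almost fully, and in both genotypes replicate 1 was the lowest and replicate 3 the highest. The log2 fold change of Pparg was 0.09 (SE 0.14, adjusted p = 0.9), with a 95% interval from 0.86-fold to 1.32-fold. Under 15 alternative settings it ranged from -0.005 to 0.20, and it was called in none. Differences between arrays of the same number were 0.03, 0.13 and 0.11 for replicates 1, 2 and 3.

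Partners and coregulators of PPARgamma were also mostly without a call. Of 21 measured, Ncoa2 alone was called, lower, and the median log2 fold change was -0.07. By their brightest probe sets, 0.445% of all 18193 genes were called higher and 1.29% lower. Rxra, which encodes the partner of PPARgamma on DNA, read 9.49, 9.62 and 9.62 in null liver, against 9.59, 9.54 and 9.63 in wild-type liver. Ppara, the related receptor that drives fatty acid oxidation in liver, had a log2 fold change of -0.16 (adjusted p = 0.64), and its groups did not overlap. After Ncoa2 the largest shift was that of Cebpb, with a log2 fold change of -0.54 (limma adjusted p = 0.318) and groups that did not overlap. The largest rise was that of Ppard, at 0.14 (limma adjusted p = 0.865), with overlapping groups. Apart from Ncoa2, the genes of this list were named after their values were seen.

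Adipoq, which encodes adiponectin, had the largest fold change among the 19 probe sets. Probe set 1422651_at read 4.88, 4.99 and 5.42 in null liver, against 2.92, 2.97 and 3.01 in wild-type liver. The wild-type values lay close together near the low end of the arrays, at the 20.1 percentile of all probe sets on average, and the null values at the 63.4 percentile. All null arrays were well above all wild-type arrays, and null replicate 3 was the highest. The difference was 2.13 on the log2 scale (SE 0.14, 4.39-fold, 95% interval 3.50 to 5.49, adjusted p = 0.000152). Because the wild-type level was so low, this fold can be understated. In bulk liver a change in the number of cells of a type and a change in RNA per cell cannot be told apart. Adipoq was called under all 12 alternatives that tested it, with adjusted p between 6.39e-05 and 0.00206. A filter on the mean over all arrays at 4.21, the median of all probe sets, would have left it out.

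Lep, which encodes the satiety hormone leptin of adipocytes, stayed at the low end. It read 2.86, 2.80 and 2.80 in null liver, against 2.72, 2.71 and 2.79 in wild-type liver, the 15.2 and 13.2 percentiles of all probe sets. The groups did not overlap, but the log2 fold change was 0.08 (adjusted p = 0.853). Retn, the resistin gene, read 4.98, 5.18 and 5.11 in null liver, against 5.03, 4.67 and 4.69 in wild-type liver. Here wild-type replicate 1 lay within the null range. The log2 fold change of Retn was 0.30, with a 95% interval from 1.01-fold to 1.49-fold and an adjusted p of 0.483, and it was called under none of 14 alternatives.

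Fabp4 had 4 probe sets, of which the brighter 2 were called. Probe set 1417023_a_at read 8.14, 8.25 and 8.30 in null liver, against 6.37, 6.32 and 6.82 in wild-type liver. Wild-type replicate 3 was the highest of its group and still lay well below the lowest null array. The rise was 3.31-fold (log2 fold change 1.73, SE 0.14, adjusted p = 0.000559). Probe set 1451263_a_at read 6.96, 6.97 and 7.23 in null liver, against 5.42, 5.27 and 5.87 in wild-type liver, a 2.89-fold rise (adjusted p = 0.00225). Both probe sets were called without each array in turn. Of the dim pair, 1424155_at averaged 3.72 ± 0.30 in null and 3.17 ± 0.15 in wild-type liver (SD, n = 3 each), with separate groups and no call (adjusted p = 0.224). The other, 1425809_at, averaged 3.73 ± 0.07 in null and 3.64 ± 0.09 in wild-type liver (SD, n = 3 each), and its groups overlapped. The probe sets of Fabp4 thus disagreed in size, and the mean over all 4 gave a log2 fold change of 0.97 (limma adjusted p = 0.000988).

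Lpl, lipoprotein lipase, rose 1.87-fold by its brighter probe set. Probe set 1415904_at read 8.53, 8.38 and 8.61 in null liver, against 7.45, 7.59 and 7.77 in wild-type liver (log2 fold change 0.90, SE 0.12, adjusted p = 0.007). The groups were separate, and the call held under all 15 alternatives, with adjusted p up to 0.0452. The second probe set of Lpl, 1431056_a_at, read 6.76, 6.90 and 6.39 in null liver, against 5.80, 6.04 and 5.93 in wild-type liver. Its null values were all above the wild-type values, its log2 fold change was 0.76, and it just missed the threshold (adjusted p = 0.0514). With the replicate number as a block, the adjusted p of 1431056_a_at was 0.0341. It was 0.016 without null replicate 3, and 0.136 to 0.206 without each of the other 5 arrays.

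Cd36, the fatty acid transporter, rose by 2 of its 3 probe sets. Probe set 1423166_at read 9.03, 9.01 and 9.22 in null liver, against 8.18, 8.35 and 8.58 in wild-type liver (1.64-fold, adjusted p = 0.037). Probe set 1450883_a_at read 8.97, 8.94 and 8.61 in null liver, against 7.98, 8.23 and 8.00 in wild-type liver (1.70-fold, adjusted p = 0.0293). In all 3 probe sets of Cd36 the null arrays were above the wild-type arrays. The third, 1450884_at, read 6.12, 5.84 and 6.23 in null liver, against 5.62, 5.35 and 5.50 in wild-type liver (1.49-fold), and was not called (adjusted p = 0.101, or 0.0448 with the replicate number as a block). The Cd36 calls were lost without most single arrays: 1423166_at was not called without any array other than wild-type replicate 3 (adjusted p 0.114 to 0.17), and 1450883_a_at was not called without any array other than null replicate 3 (adjusted p 0.0588 to 0.139). Both also missed the threshold in replicates 1 and 2 alone, with adjusted p of 0.0788 and 0.0728, and 1423166_at did so when arrays were centred on their medians (adjusted p = 0.0526). When the 3 probe sets were averaged, Cd36 had a log2 fold change of 0.69 (SE 0.08, limma adjusted p = 0.00136).

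Vldlr, the receptor for very-low-density lipoprotein, was not called by any of its 6 probe sets. The brightest, 1434465_x_at, read 6.19, 6.29 and 6.33 in null liver, against 6.15, 6.15 and 6.21 in wild-type liver (log2 fold change 0.10, adjusted p = 0.813). Probe set 1417900_a_at of Vldlr had the largest difference, reading 4.35, 5.09 and 4.55 in null liver, against 4.09, 4.16 and 4.26 in wild-type liver. Its groups were separate, but null replicate 2 stood above the other null arrays, and the fold of 1.41 was not called (adjusted p = 0.39). The remaining 4 had log2 fold changes between -0.02 and 0.13, all with overlapping groups. Probe sets whose names end in _x_at or _s_at can detect several related transcripts.

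**Figure D2:**
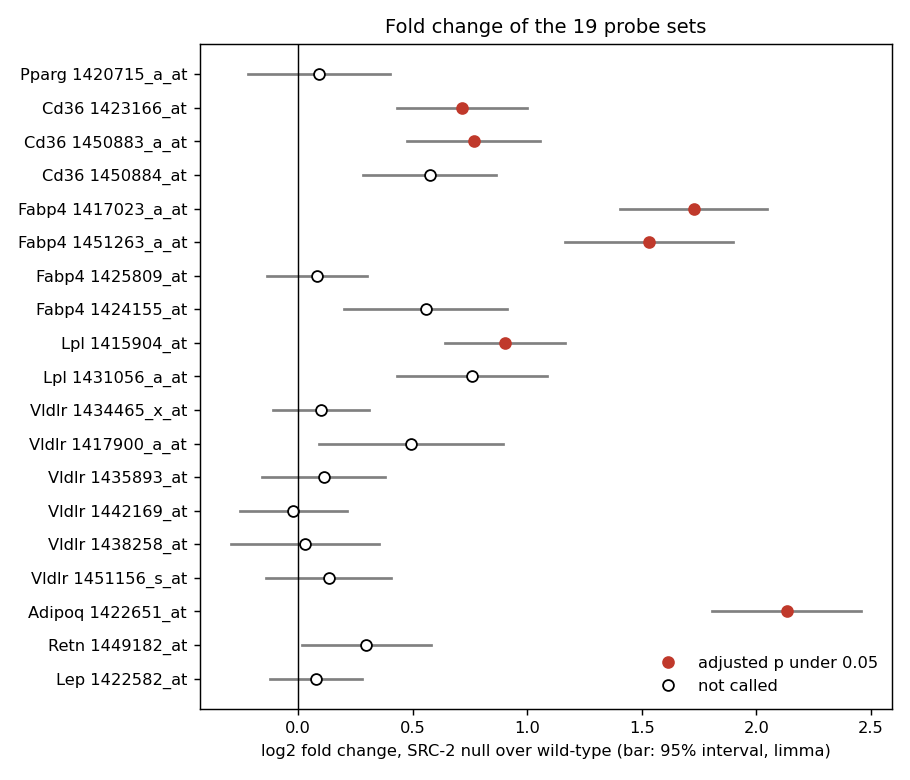
Log2 fold change (horizontal axis, SRC-2 null over wild-type) of each of the 19 probe sets, with its 95% interval from limma. Filled points are the 6 that were called. The interval of Pparg spans 0, and that of Adipoq, 1.81 to 2.46, lies above all others but those of Fabp4 1417023_a_at and 1451263_a_at.

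The rises were present at every replicate number. For Adipoq the null array exceeded the wild-type array of the same number by 1.96, 2.02 and 2.41 on the log2 scale in replicates 1, 2 and 3. For Fabp4 1417023_a_at these differences were 1.76, 1.93 and 1.49. They were 1.08, 0.79 and 0.84 for Lpl 1415904_at and 0.84, 0.66 and 0.64 for Cd36 1423166_at. Replicate 3 gave the largest of the 3 differences for Adipoq and the smallest for Fabp4 1417023_a_at and Cd36 1423166_at.

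**Figure D3:**
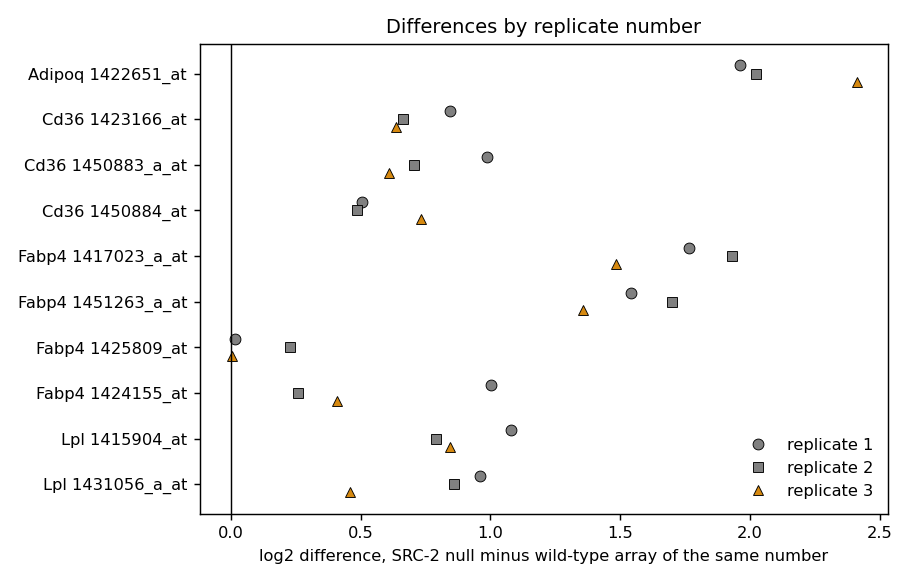
Log2 difference (horizontal axis) between the SRC-2 null and the wild-type array of the same replicate number for the 10 probe sets of Adipoq, Cd36, Fabp4 and Lpl. Replicate 3, which stands apart over the probe sets at or above the median level, is in orange, and all 30 points lie above 0.

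Set side by side, 3 of the 5 measured genes on the lipid uptake side, Pparg included (Fabp4, Lpl and Cd36), and 1 of 3 on the adipocyte side (Adipoq) were called higher by their brightest probe sets. By the same measure 0.445% of all genes were called higher. The uptake side had a median log2 fold change of 0.71 and the adipocyte side 0.30, against 0.01 over all genes. The adipocyte median is simply the value of Retn, with Adipoq far above it and Lep at the low end of the arrays. Fabp4, Lpl and Cd36 are also genes of adipocytes and were counted on the uptake side, so the 2 medians do not rank the sides. No test was made between the sides. Without single arrays the uptake side had 2 to 3 genes called higher, Cd36 being the one lost, and the adipocyte side 1 throughout.

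Other adipocyte genes moved in both directions. Of 20 listed, 19 had a probe set with a single symbol, of which 3 were called higher, 2 lower and 14 not called. The median of their log2 fold changes was 0.06. By brightest probe sets, 0.445% of all genes were called higher and 1.29% lower. Transcripts of Cidec and Cidea, which encode proteins that enlarge lipid droplets, rose 6.25-fold and 2.91-fold. Cidec read 6.15, 6.14 and 6.14 in null liver, against 3.65, 3.39 and 3.47 in wild-type liver, and Cidea 4.96, 5.33 and 5.22 in null liver, against 3.39, 3.85 and 3.63 in wild-type liver. Both groups of values were far apart, and both genes are also known to be induced in fatty mouse liver. Itih5, a secreted matrix-associated protein of fat, rose 2.26-fold, reading 7.66, 7.75 and 7.74 in null liver, against 6.62, 6.40 and 6.61 in wild-type liver.

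Car3, a carbonic anhydrase made in fat and in liver, was 1.71-fold lower, at 11.56 ± 0.05 in null and 12.33 ± 0.03 in wild-type liver (SD, n = 3 each). Its call was lost in replicates 1 and 2 alone (adjusted p = 0.063). Plin4, a lipid droplet coat protein named after its value was seen, was 1.46-fold lower (adjusted p = 0.047). It lost that call when any single array was left out (adjusted p up to 0.227), and with the replicate number as a block (adjusted p = 0.0578). Adig, an adipocyte-specific gene, read 4.28, 4.14 and 3.85 in null liver, against 4.30, 3.70 and 3.36 in wild-type liver, with overlapping groups. Lipe, hormone-sensitive lipase, averaged 6.65 ± 0.08 in null and 6.33 ± 0.11 in wild-type liver, and Ucp1, the brown fat uncoupling protein, 5.08 ± 0.18 in null and 4.52 ± 0.24 in wild-type liver (SD, n = 3 each). Neither was called, although the groups did not overlap for either.

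Over the 19 other adipocyte genes, the mean log2 level per array was 5.76 to 5.79 in null and 5.42 to 5.52 in wild-type liver. Cidec, Cidea and Itih5 account for most of that difference. The median log2 fold change of the 19 was only 0.06. However, 9 of the 19 had means below 4.21, the median of all probe sets, and others are bright in liver itself. This median therefore does not show whether RNA of adipocytes rose. The summed level on the linear scale, which the genes shared with liver dominate, was 6865 to 7026 in null and 9089 to 9342 in wild-type liver. Over the 3 measured genes of the adipocyte side it was 68.2 to 84.4 in null and 39.8 to 46.7 in wild-type liver. Of these 3, Adipoq alone was called. The part of adipocytes carried in the tissue in the rise of Adipoq, Fabp4, Lpl and Cd36 was not tested.

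**Figure D4:**
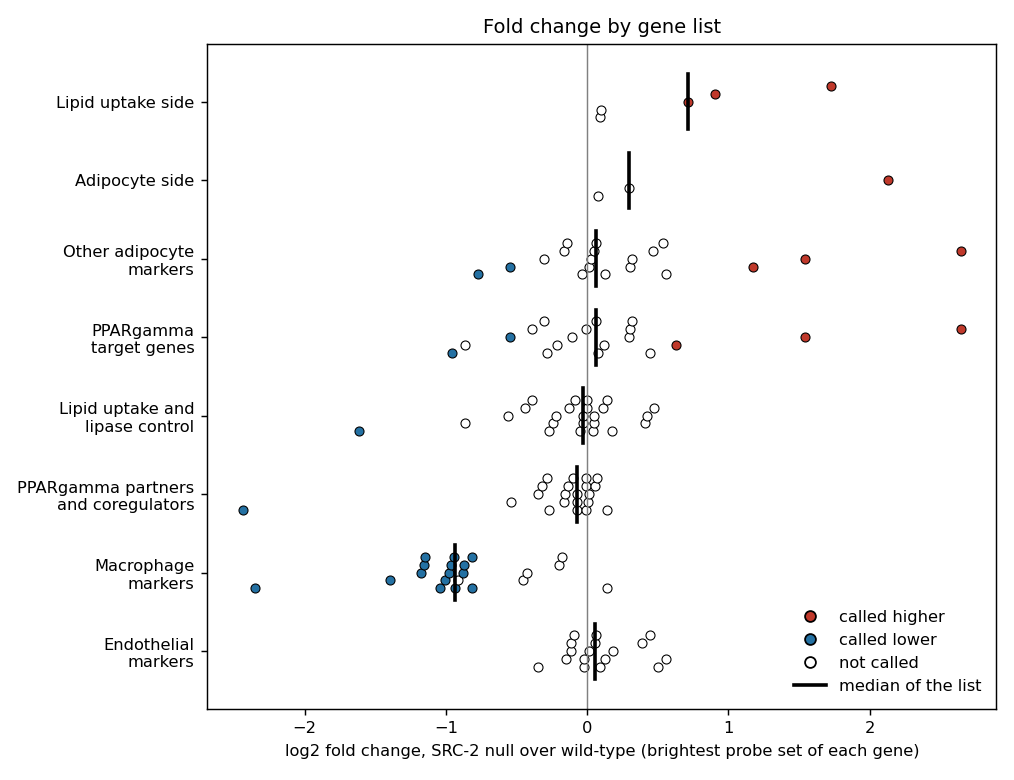
Log2 fold change (horizontal axis, SRC-2 null over wild-type) of every gene of 8 lists by its brightest probe set, with black bars at the medians. Adipocyte markers and PPARgamma target genes spread to both sides of 0, while macrophage markers lie mostly below 0, with a median of -0.94.

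PPARgamma target genes known from fat or fatty liver were likewise mixed. Of 24 listed, 19 were measured, with a median of 0.06. Of the 19, 3 were called higher (Cidec, Cidea and Fitm1) and 2 lower (Pdk4 and Plin4), against 0.445% and 1.29% of all genes. Several of these genes also stand in the adipocyte list. Fitm1, which helps to form lipid droplets, read 7.46, 7.64 and 7.61 in null liver, against 7.01, 6.97 and 6.85 in wild-type liver, a 1.55-fold rise (adjusted p = 0.0214). It was not called without any array other than null replicate 1 (adjusted p up to 0.111). Pdk4, a kinase that restrains pyruvate dehydrogenase, read 4.99, 4.75 and 4.88 in null liver, against 5.60, 5.81 and 6.08 in wild-type liver, a 1.94-fold lower level. Pdk4 was no longer called when replicate 2 of either genotype was left out (adjusted p up to 0.0742).

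Of 24 measured genes of other lipid uptake steps and of lipoprotein lipase control, none was called higher and 1 lower, with a median of -0.03. Over all genes, 0.445% were called higher and 1.29% lower. The 24 held fatty acid transport proteins, lipase inhibitors and cofactors, and lipoprotein receptors. Among those not called, the largest rise was that of Apoc2, with a log2 fold change of 0.48 (limma adjusted p = 0.0656). The largest fall among them was that of Fabp5, at -0.86 (limma adjusted p = 0.289). The groups did not overlap for either, and both were named after their values were seen. The gene called lower was Lipg, endothelial lipase, a relative of Lpl that acts mainly on high-density lipoproteins. Lipg read 5.89, 5.95 and 6.70 in null liver, against 7.40, 7.59 and 8.41 in wild-type liver, a 3.07-fold lower level (adjusted p = 0.0404). Replicate 3 was the highest array of both genotypes. The adjusted p was 0.000465 with the replicate number as a block, and Lipg was not called without any array other than null replicate 3 (adjusted p up to 0.186). With that block 3 genes of this list were called lower and none higher, and with an intensity trend in limma 3 were called lower and 2 higher.

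Macrophages and endothelial cells also make Fabp4, Lpl and Cd36, so their markers are given beside these genes. Of 21 macrophage and Kupffer cell markers, 15 were called lower and none higher, against 1.29% and 0.445% of all genes. Their median log2 fold change was -0.94. Marco, a scavenger receptor, was 5.10-fold lower, Timd4, a receptor for dying cells, 2.63-fold, Adgre1, the F4/80 antigen, 2.26-fold, Cd5l, a secreted macrophage protein, 2.22-fold and Clec4f, a Kupffer cell lectin, 1.97-fold. The summed level of the list was 3231 to 3440 in null and 6342 to 6738 in wild-type liver, opposite in direction to Fabp4, Lpl and Cd36, and its part in these results was not tested. Without single arrays 12 to 14 macrophage markers were called lower. None of 17 endothelial markers was called in limma, but 1 was called higher with the replicate number as a block. Lyve1, Emcn and Flt1, named after their values were seen, had the largest rises of the list. Their log2 fold changes were 0.56, 0.50 and 0.44, with null values above wild-type values on all arrays (adjusted p 0.136 to 0.283). Other endothelial markers went the other way. At that end of the list, Pecam1 and Ramp2 had log2 fold changes of -0.35 and -0.15, with overlapping groups (adjusted p 0.531 and 0.817). The median over the 17 was 0.05, and their summed level was 1838 to 2064 in null and 1793 to 1944 in wild-type liver. Their part in the rise of Fabp4, Lpl and Cd36 was not tested.

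The genes most like Pparg and Adipoq over the 6 arrays were found by the root mean square difference of log2 values, after each gene's wild-type mean was subtracted, among 11894 genes at or above the filter value of 4.21. Nearest to Pparg were Champ1, Spint2, Dcakd, Ubr4 and Cyb561d2, at differences of 0.02 to 0.04. Like Pparg none of them was called, which follows from choosing them by their closeness to its values. Nearest to Adipoq were Apoa4, an apolipoprotein, at 0.24, Cyp4a12a, a fatty acid hydroxylase, at 0.25, Fabp4 at 0.34, Lrtm2 at 0.36 and Cidec at 0.41. All 5 were called higher, which the choice by closeness to Adipoq also favours, and Fabp4 is itself a member. The filter was on the mean over all arrays, and Cidec, with a wild-type mean of 3.5, passed it only through its null arrays. Lrtm2 had wild-type values of 4.15, 4.32 and 4.06, close to the filter value. Apoa4 read 12.30, 12.39 and 12.35 in null liver, against 10.52, 10.45 and 10.36 in wild-type liver. Cyp4a12a belongs to a family of close copies and the Apoa4 probe set is of the _x_at kind, so both may detect related transcripts.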

How the data were processed

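Liver RNA was measured on Affymetrix arrays, 3 SRC-2 null and 3 wild-type. The deposited table holds log2 values made with RMA, per the submitters' processing notes. No RMA version or build is given in the sources used here. The 64 control probe sets were left out, and dim ones kept. Genotypes were compared over 45037 probe sets with limma 3.58.1 (lmFit, eBayes, two-sided) in R 4.3.3, genotype the only term, and a call meant an adjusted p (Benjamini-Hochberg) under 0.05. The labels do not say that replicates are separate animals, so p-values measure only how these samples vary, and that spread may be technical. Symbols came from the platform annotation, which can be old.

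Members, lists and tests were chosen with earlier results of these data known. Besides the members and Ncoa2, the genes named were up to 4 called genes per list with the largest fold change, defining markers of cell types, and the 5 nearest patterns. The procedure was also run on simulated data with independent noise in each array. That noise lacked the shared deviation of the replicate 3 arrays, so the run does not check the calls against it. Over probe sets at or above the median level, deviations of same-numbered arrays from their group means correlated at 0.24, 0.30 and 0.65 for replicates 1, 2 and 3. However, null replicate 1 with wild-type replicate 2 also gave 0.30, and null replicate 2 with wild-type replicate 1 gave 0.33. The correlations therefore set replicate 3 apart but do not separate numbers 1 and 2. Since every same-numbered pair was above 0.1, a fit with the replicate block was run and its values are given. The labels do not state a pairing. Python 3.11.15 with matplotlib 3.10.9 made the figures.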

Additional observations from a re-analysis of the deposited data

How the results depend on the processing

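Refits under the alternative settings gave 253 results for member probe sets, 1 per probe set and setting, all from the same arrays. Of these results, 233 kept their side of the threshold and 13 lost a call (all Cd36). A call was gained in 7 (Lpl 1431056_a_at and Cd36 1450884_at), and none reversed a called direction. Adipoq, Fabp4 1417023_a_at and 1451263_a_at and Lpl 1415904_at were called under every alternative that tested them. Of all probe sets, 481 were called, 120 higher and 361 lower. With an intensity trend 197 were called higher, with replicate 3 as an array batch term 745 were called, 214 of them higher, and with the replicate block 606, 160 higher. In replicates 1 and 2 only, 211 were called, 49 higher and 162 lower. With a filter at a mean of 6, 194 were called higher, and with the brightest probe set per gene, filtered, 184 genes, fewer features being tested in both. Leaving out 1 array gave 258 to 363 calls, 56 to 100 higher and 202 to 281 lower, with fewer samples. The replicate block changed no member call other than those of Lpl 1431056_a_at and Cd36 1450884_at, given beside them. List counts under these refits were added after seeing the data. Probe sets near background, such as Adipoq in wild-type liver and Lep in both genotypes, limit what a fold change can show, and detection calls were not used here.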

Other observations

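Heart or skeletal muscle and exocrine pancreas, which could be carried along in a dissection, were looked at through their markers. Of 12 heart and skeletal muscle genes, none was called in limma, and the summed level was 181 to 206 in null and 183 to 203 in wild-type liver. Of 5 measured exocrine pancreas genes, none was called either, and the summed level was 98.8 to 115 in null and 98.4 to 112 in wild-type liver. Of the 12 muscle genes 8, and of the 5 pancreas genes 3, had means below 4.21, the median of all probe sets. Sums of such dim genes can miss a small amount of these tissues.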
